A study of Caenorhabditis elegans with 13 samples.

Results

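The genes described here were a panel of 9 factors and markers of the C. elegans intestine, read by 11 of the 22548 probe sets of the array, chosen as every probe set that the platform annotation assigns to 1 of these genes and to no other. The array held 17118 genes with such a probe set. They were end-1, end-3, elt-2 and elt-7, which encode GATA-type transcription factors of the endoderm, and ges-1, ifb-2, act-5, cpr-1 and pho-1, which encode products of differentiated intestinal cells. elt-2 and pho-1 had 2 probe sets each, and 1 probe set read each of the others. The series holds 13 Affymetrix arrays, each hybridised with amplified RNA of a separate biological replicate. Muscle cells of strain PD4251, which carries the integrated transgene ccIs4251 with myo-3::GFP, were sorted for GFP. The 3 M0 arrays hold muscle cells sorted as soon as embryos had been dissociated, and the 3 M24 arrays hold those kept 24 hr in a dish beforehand. The reference was all living cells of dissociated wild-type (N2) embryos, with 3 R0 arrays at 0 hr and 4 R24 arrays at 24 hr. For the R24 arrays the paper cites an earlier study. R24 replicates 1 to 3 shared a scan day that held no M24 array, and R24 replicate 4 has no scan record. The myo-3 promoter also drives GFP in the anal depressor and sphincter muscles, and the muscle and reference cells differed in strain as well as in cell type.

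The worm intestine descends from a single early blastomere, E. In that lineage the GATA factors END-1 and END-3 act briefly to specify endoderm, and ELT-2 with ELT-7 then drives and maintains the genes of the differentiated gut, among them those for digestive enzymes and for the actin and intermediate filaments beneath the lumen. Intestinal cells are autofluorescent, and per the methods of the study cells that fluoresced in both the red and the green channel were taken to be gut cells and lay outside the gate set for GFP. Dead cells were excluded from the reference by a red dye, and whether that gate also removed gut cells from the reference was not tested. In these bulk samples, fewer cells of a type and less RNA per cell cannot be told apart. The paper also reports that a small share of the sorted muscle cells lacked GFP. The part of such cells in the M0 and M24 signal was not tested, so signal on those arrays is not by itself expression in muscle.

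The labels held in the markers of the sorted cells. All 7 body wall muscle markers were raised in muscle at both times. hlh-1, the myogenic regulator, was higher by 2.61 ± 0.25 (SE) on the log2 scale at 0 hr and by 2.38 ± 0.21 at 24 hr. Of 8 neuron markers, 6 were lowered at each time, and of 8 epidermis markers 6 were lowered at 0 hr and 7 at 24 hr. Of 6 pharynx markers, 4 were lowered at 0 hr and 0 at 24 hr, and of 6 germline markers 1 was lowered at each time. Median intensity of an array was 49.2 to 58.0. In 2 arrays the span from the lowest to the highest decile was narrow and the background level, defined next, was high for their group. The span was 3.53 log2 units in M0 replicate 2, against 4.05 and 4.13 in the other M0 arrays, and 3.91 in M24 replicate 3, against 4.50 and 4.86. Their background levels were intensities of 112.7, against 94.5 and 88.0, and 155.7, against 97.5 and 82.7. The number of arrays limits the precision of every value.

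Because a lack of change means little where a probe set reads nothing, each value was first set against its own array. The background level of an array was the 95th percentile of 978 probe sets for 967 chemoreceptor genes, which are expressed in few sensory neurons. A probe set was taken as above background in a group when it passed that level on the majority of the group's arrays. By this measure 3 of the 11 probe sets were above background in M0, 3 in R0, 5 in M24 and 6 in R24. Over all probe sets the share above background was 27.4% in M0, 34.1% in R0, 32.1% in M24 and 36.5% in R24. Only act-5 passed on all 13 arrays. The probe sets of ges-1, both of pho-1 and elt-2 175269_at, passed on 0 of 13 arrays, reference arrays included. The remaining 6, of end-1, end-3, elt-7, ifb-2, cpr-1 and the second elt-2 probe set, 193259_at, passed on some arrays only. The background set was itself higher in muscle, with a median log2 fold change of 0.23 at 0 hr and 0.27 at 24 hr, and its 95th percentile lay at 0.51 and 0.67. Of the 978 probe sets, 27.6% had every M24 value above every R24 value. Levels are compared within a probe set and within a time, since probe affinity differs between probe sets and the values of the 2 times were taken to come from separate normalization runs.

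**Figure D1:**
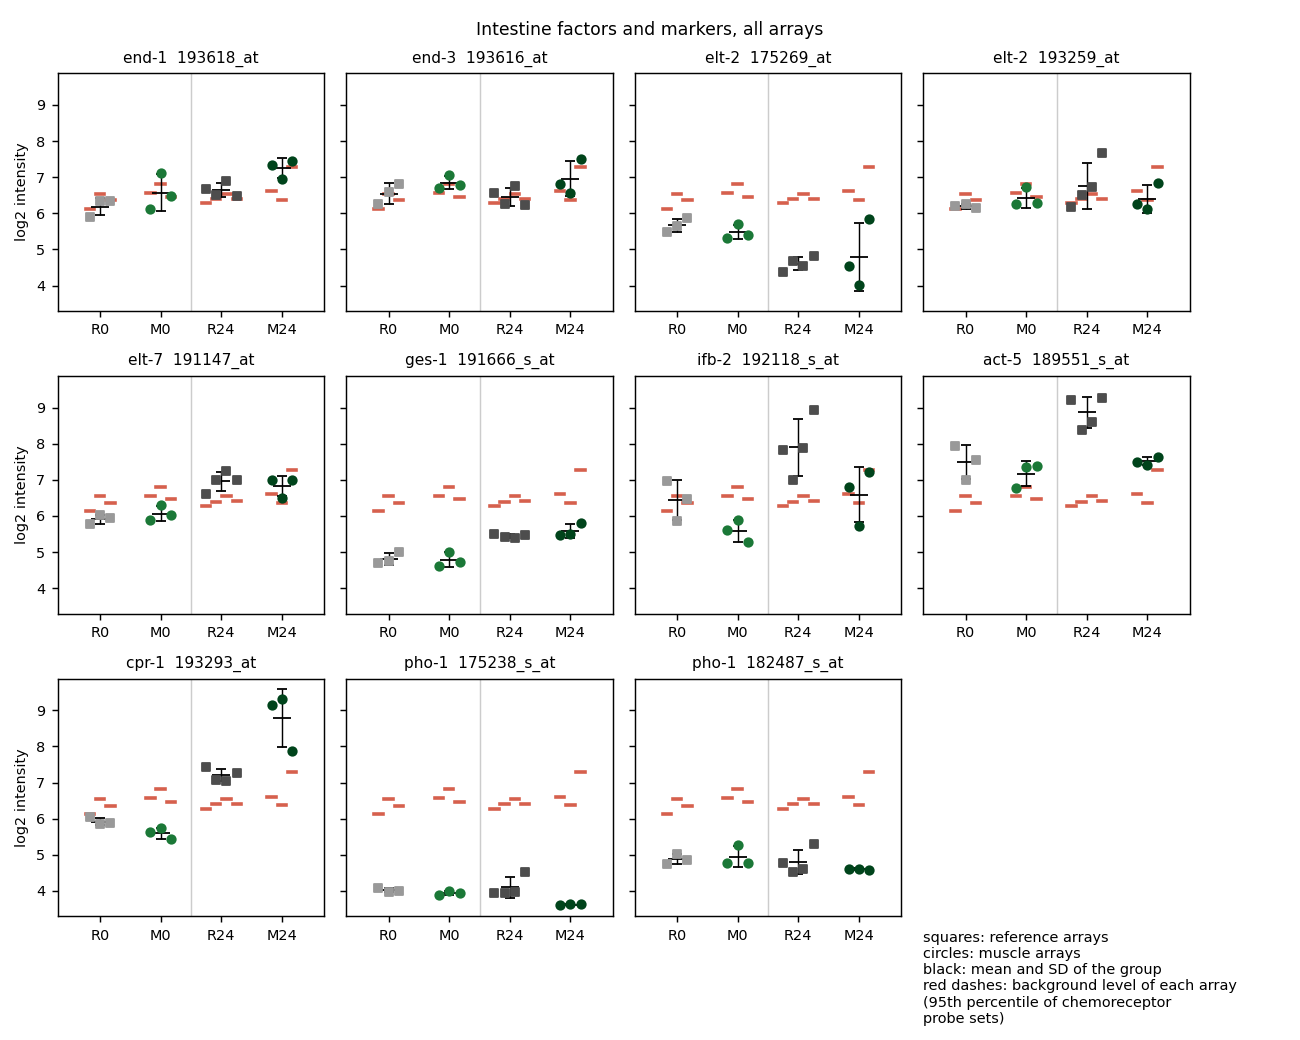
Log2 intensity (y axis) of the 11 probe sets on all 13 arrays, by group (x axis). Squares are reference arrays, circles muscle arrays, black marks the mean and SD of the group, and red dashes the background level of each array. The probe sets of ges-1, pho-1 and elt-2 175269_at lie below the dashes on every array, act-5 lies above them on every array, and cpr-1 moves from below them at 0 hr to above them at 24 hr.

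At 0 hr 0 of the 11 probe sets were called different between M0 and R0, where a call required an adjusted p under 0.05 over all probe sets (limma, Benjamini-Hochberg) and a fold of at least 1.7. Over all probe sets 3.81% were raised and 7.91% lowered at 0 hr. One of the 11 had an unadjusted p under 0.05. At 24 hr 1 of 11 was raised (cpr-1) and 1 lowered (act-5), against 2.26% raised and 5.93% lowered over all probe sets, and 5 had an unadjusted p under 0.05. Calls in either direction made up 11.7% of all probe sets at 0 hr and 8.19% at 24 hr. Muscle lay wholly above reference in 0 of the 11 at 0 hr and 2 at 24 hr, where 17.3% and 16.5% of all probe sets did, and wholly below in 1 and 2, where 14.7% and 12.4% did. The 2 times were then set against each other as the enrichment at 24 hr less that at 0 hr. In that contrast 1 of 11 was raised (cpr-1) and 0 lowered, against 0.936% and 0.993% over all probe sets (1.93% in either direction), and 2 had an unadjusted p under 0.05. The median log2 fold change of the 11 was -0.04 at 0 hr and -0.13 at 24 hr, beside 0.10 and 0.09 over all probe sets.

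**Figure D2:**
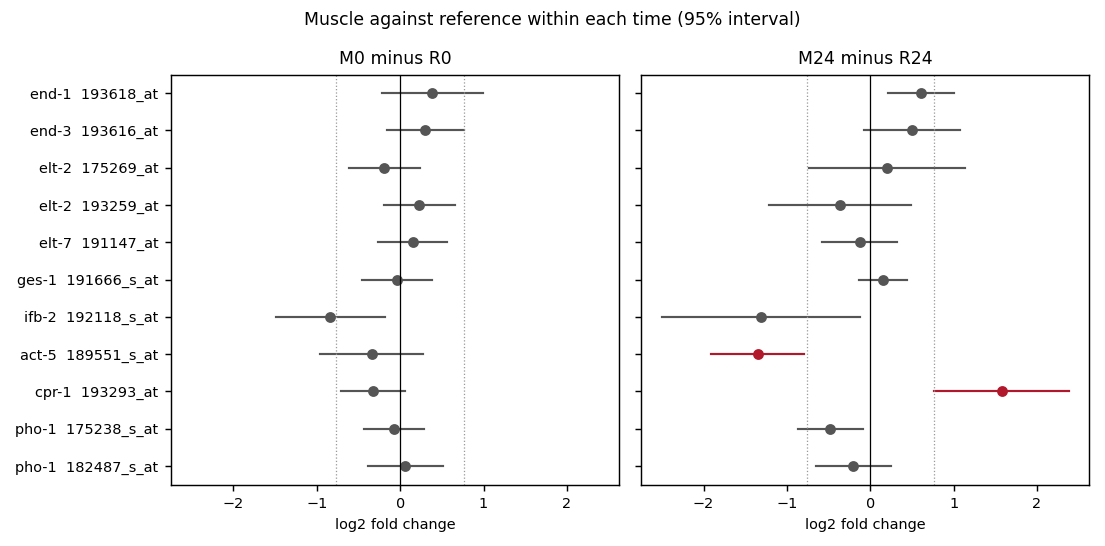
Log2 fold change of muscle over reference (x axis) for each probe set (y axis) at 0 hr (left) and 24 hr (right), with 95% intervals from limma. Dotted lines mark a fold of 1.7 and red marks a call: act-5 at -1.35 and cpr-1 at 1.57, both at 24 hr.

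The specification factors end-1 and end-3 gave values near background, none more than 0.73 log2 units over it. For end-1, which is among the first zygotic genes of the E lineage, log2 intensity was 5.90, 6.33 and 6.33 in R0 and 6.12, 7.12 and 6.48 in M0. At 24 hr it was 6.69, 6.52, 6.88 and 6.47 in R24 and 7.34, 6.94 and 7.46 in M24. The groups overlapped at 0 hr, and at 24 hr each M24 array was above each R24 array, as were 16.5% of all probe sets. The log2 fold change was 0.39 ± 0.27 (SE, limma adjusted p = 0.406) at 0 hr and 0.61 ± 0.17 (adjusted p = 0.0646, 95% interval 0.21 to 1.00) at 24 hr, where no call was made. The 24 hr value lies within the range of the chemoreceptor background set, whose 95th percentile was 0.67. The largest distance of end-1 over the background level was 0.73 log2 units, in M24 replicate 1.

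end-3, the partner of end-1 in endoderm specification, lies on the same chromosome (V), with 4 protein-coding genes between them in the RefSeq gene table. Its log2 intensity was 6.25, 6.58 and 6.82 in R0 and 6.71, 7.05 and 6.79 in M0, and the groups overlapped. At 24 hr it was 6.57, 6.27, 6.76 and 6.23 in R24 and 6.81, 6.57 and 7.49 in M24, with M24 replicate 3 the highest and replicate 2 within the reference range. The log2 fold change was 0.30 ± 0.20 (limma adjusted p = 0.391) and 0.50 ± 0.25 (adjusted p = 0.218), and neither was called. No value was more than 0.46 log2 units over the background level of its array. For both genes the intervals of the fold change, -0.22 to 0.99 for end-1 and -0.16 to 0.76 for end-3 at 0 hr, leave room for a difference of either sign.

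The maintenance factors elt-2 and elt-7 were not called at either time. elt-2 encodes the GATA factor that dominates transcription in the differentiated intestine. Its probe set 175269_at read 5.49, 5.64 and 5.86 in R0, 5.32, 5.70 and 5.40 in M0, 4.38, 4.68, 4.55 and 4.80 in R24, and 4.54, 4.02 and 5.84 in M24. Every value was below the background level, by at least 0.50 log2 units, so its fold changes of -0.19 ± 0.19 (limma adjusted p = 0.551) and 0.20 ± 0.40 (adjusted p = 0.758) were taken between values at background. The second probe set, 193259_at, read 6.19, 6.27 and 6.13 in R0 and 6.26, 6.73 and 6.29 in M0. At 24 hr it read 6.17, 6.50, 6.72 and 7.66 in R24 and 6.26, 6.11 and 6.83 in M24. R24 replicate 4 alone stood clear of background, by 1.26 log2 units, and the next highest value over background was 0.18, in R24 replicate 3. The log2 fold change was 0.23 ± 0.19 (limma adjusted p = 0.485) at 0 hr and -0.36 ± 0.36 (adjusted p = 0.514) at 24 hr. Without R24 replicate 4 the 24 hr value was -0.06.

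elt-7, which acts in parallel with elt-2, was below background on every array at 0 hr, at 5.78, 6.02 and 5.94 in R0 and 5.88, 6.30 and 6.01 in M0. After culture it was above background on 4 of 4 R24 arrays, at 6.61, 6.98, 7.24 and 6.98, and on 2 of 3 M24 arrays, at 6.99, 6.51 and 6.98. The highest value over background was 0.70 log2 units and the groups overlapped at both times. The log2 fold change was 0.15 ± 0.18 (limma adjusted p = 0.633) at 0 hr and -0.13 ± 0.19 (adjusted p = 0.665) at 24 hr, with a 95% interval of -0.58 to 0.32 at 24 hr. A fold of 1.7 in intensity lies outside that interval. With values this near background, the interval does not bound a difference in transcript level.

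Among the products of differentiated intestine, ges-1 and pho-1 gave no signal above background. ges-1, the gut esterase whose activity is a classic assay of intestinal fate, read 4.70, 4.75 and 5.01 in R0, 4.61, 5.01 and 4.73 in M0, 5.50, 5.42, 5.40 and 5.46 in R24, and 5.46, 5.50 and 5.82 in M24. The groups overlapped at both times, and its log2 fold changes were -0.04 ± 0.19 (limma adjusted p = 0.915) and 0.15 ± 0.12 (adjusted p = 0.431). The closest it came to the background level was 0.78 log2 units below. pho-1 encodes an intestinal acid phosphatase. Its probe set 175238_s_at read 4.09, 3.97 and 3.99 in R0, 3.87, 4.00 and 3.94 in M0, 3.95, 3.94, 3.97 and 4.53 in R24, and 3.60, 3.63 and 3.64 in M24. All M24 values were below all R24 values, as in 12.4% of all probe sets, with a log2 fold change of -0.48 ± 0.17 (unadjusted p = 0.0239, limma adjusted p = 0.114), at levels at least 1.87 log2 units below background. The other pho-1 probe set, 182487_s_at, ranged from 4.52 in R24 replicate 2 to 5.29 in R24 replicate 4 over the 13 arrays, and its log2 fold changes were 0.06 ± 0.20 and -0.20 ± 0.19 (limma adjusted p = 0.861 and 0.488). For these 2 genes no array, reference or muscle, passed the background level, so the lack of a call was not read as a lack of change.

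ifb-2, an intermediate filament protein of the terminal web under the intestinal lumen, was measurable mainly in the reference. Log2 intensity was 6.97, 5.86 and 6.47 in R0 and 5.62, 5.88 and 5.27 in M0. It was 7.83, 6.98, 7.88 and 8.92 in R24 and 6.80, 5.74 and 7.22 in M24. At 0 hr the lowest reference array, R0 replicate 2, lay just under the highest muscle array, and at 24 hr M24 replicate 3 lay above R24 replicate 2, so the groups overlapped at both times. It was above background on 2 of 3 R0 arrays, 0 of 3 M0 arrays, 4 of 4 R24 arrays and 1 of 3 M24 arrays. The log2 fold change was -0.84 ± 0.29 (unadjusted p = 0.0175, limma adjusted p = 0.103) at 0 hr and -1.32 ± 0.51 (unadjusted p = 0.0345, adjusted p = 0.137) at 24 hr, and neither was a call. At 0 hr the value became a call without R0 replicate 2 (-1.12, adjusted p = 0.0222) and with scan day as a block (-0.96, adjusted p = 0.0343). Other settings moved the 0 hr value away from a call. It was -0.57 without R0 replicate 1 (adjusted p = 0.282) and -0.57 with an offset of 32 added before log2 (adjusted p = 0.179). In 1 fit to all 13 arrays its adjusted p was 0.279. Within the 2 scan days that held both groups M0 minus R0 was -1.34 and -0.58. R0 replicate 2 and M0 replicate 3 were each alone on a scan day. The scan day block, the within-day values and the fit without R0 replicate 2 all set that array aside, so they are not independent.

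act-5, the actin of the intestinal microvilli, was the only gene of the group above background throughout and the only one called lowered. At 0 hr its log2 intensity was 7.95, 7.01 and 7.56 in R0 and 6.77, 7.35 and 7.37 in M0, with overlapping groups and a log2 fold change of -0.34 ± 0.27 (limma adjusted p = 0.470). Within the 2 scan days that held both groups the 0 hr difference was -1.18 and -0.21. At 24 hr it was 9.20, 8.39, 8.60 and 9.27 in R24 and 7.50, 7.40 and 7.64 in M24. The highest M24 value, 7.64, was below the lowest R24 value, 8.39, and the difference was 2.55-fold, or -1.35 ± 0.24 on the log2 scale (95% interval -1.91 to -0.79, limma adjusted p = 0.0164). M24 remained above background on 3 of 3 arrays, by 0.36 to 1.03 log2 units, and R24 by 1.99 to 2.92. The direction held without each array in turn (-1.51 to -1.22), and the call was lost without M24 replicate 1 (-1.35, adjusted p = 0.0716) and when scan day entered as a random block (-1.44, adjusted p = 0.0828). At 24 hr no recorded scan day held both groups, so scan day and cell group cannot be told apart. The difference between the times was -1.01 ± 0.39 (adjusted p = 0.265) and was not a call. Its probe set carries the suffix _s_at, which Affymetrix gives where probes match several transcripts, so signal from related actins was not separated. Neuron and epidermis markers were also lower in M24: the summed intensity of the 8 epidermis markers was 1491 to 1968 in M24 and 8710 to 12070 in R24, and that of the 8 neuron markers 998 to 1642 and 4558 to 8512. Their part in the act-5 difference was not tested.

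cpr-1, a cathepsin B-like cysteine protease of the gut, was the only gene of the panel called raised. At 0 hr it was below background on all arrays, at 6.04, 5.85 and 5.87 in R0 and 5.63, 5.73 and 5.43 in M0. Each M0 value was below each R0 value, as in 14.7% of all probe sets, with a log2 fold change of -0.32 ± 0.17 (limma adjusted p = 0.285). At 24 hr it was above background on all arrays, at 7.42, 7.08, 7.04 and 7.27 in R24 and 9.15, 9.33 and 7.86 in M24. All 3 M24 values were above the highest R24 value, and M24 replicate 3, the array with the highest background level, was the lowest of them. The difference was 2.98-fold, or 1.57 ± 0.34 on the log2 scale (95% interval 0.77 to 2.38, limma adjusted p = 0.0326). The enrichment at 24 hr less that at 0 hr was 1.90 ± 0.41 (95% interval 1.02 to 2.78, adjusted p = 0.0335), in which the 0 hr values were all below background. With the replicate number as a block it was 1.92 (adjusted p = 0.0593), which was not a call. By rank within its own array, which needs no common scale, cpr-1 stood at percentile 53.5 to 59.2 in R0 and 42.8 to 48.9 in M0, and at 72.1 to 76.4 in R24 and 87.5 to 93.0 in M24.

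The sign of the cpr-1 difference at 24 hr was the same without each array in turn, at 1.30 to 2.03, but the call depended on the arrays. It was lost without any 1 of R24 replicates 1 to 4 or M24 replicates 1 and 2 (adjusted p = 0.0599 to 0.126) and held without M24 replicate 3 (2.03, adjusted p = 0.00116). A random block for scan day gave 1.56 (adjusted p = 0.100). No recorded scan day held both M24 and R24, so scan day and cell group cannot be told apart in these values. The difference between the times was 1.62 to 2.36 without each array in turn and stayed a call only without R24 replicate 1 or without M24 replicate 3.

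How the genes moved together was described over the 13 arrays after removing the mean of each time, using 1 probe set a gene. Over the 36 pairs of genes Pearson's r ran from -0.66 to 0.86 with a median of 0.15, and the points share the difference of muscle and reference and the background level of each array. The highest value was for end-1 with end-3 (0.86), whose signal was near background, and the next was ifb-2 with act-5 (0.83), the filament and the actin of the apical surface. The lowest was act-5 with cpr-1 (-0.66). The 5 genes of the array most like act-5, the brightest of the panel, were snt-4, bcf-1, ptr-23, F26E4.3 and Y54E10A.10, with r of 0.92 to 0.93 over the 13 arrays.

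Other genes were counted list by list, in 5 lists of the endoderm and intestine programme and 1 of GATA factors of other tissues, taking the brightest probe set of each gene. The 6 lists named 75 genes, of which 67 had a probe set of their own. At 0 hr 1 of the 67 was raised and 9 lowered, where 3.95% and 8.27% of all genes were raised and lowered. At 24 hr 0 were raised and 8 lowered, where the shares were 2.43% and 6.0%, and for the difference between the times 1 was raised and 0 lowered, where they were 1.04% and 0.952%. GATA factors of other tissues made up 2 of the 9 lowered at 0 hr and 1 of the 8 lowered at 24 hr. Upstream of the endoderm factors, 9 of 11 genes were measured. skn-1 and med-1, the maternal and zygotic activators of the E lineage, were among those not called. med-1 was below background on every array, so its lack of a call was not read as a lack of change. wrm-1, a beta-catenin of the Wnt signal that polarises the mother cell of E, was lowered at both times (-1.33 ± 0.26 at 0 hr and -1.07 at 24 hr, limma adjusted p = 0.0088 and 0.0483). It passed the background level on 1 of 3 R0 and 1 of 4 R24 arrays only. Its 0 hr call was lost with an offset of 32 added before log2 (-0.70, adjusted p = 0.0531), and its 24 hr call was lost without any 1 array of that time (-1.20 to -0.86). Its second probe set was not called, at -0.44 (adjusted p = 0.198) and -0.70 (adjusted p = 0.0459), the latter under the fold minimum. apr-1, the worm relative of APC in the same pathway, was lowered at 24 hr (-1.09 ± 0.18, adjusted p = 0.0141), a call lost without R24 replicate 2 (adjusted p = 0.0523) and without M24 replicate 1 (adjusted p = 0.0628).

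GATA factors of other tissues were read to set the endoderm factors in context. Of 5, 2 were lowered at 0 hr and 1 at 24 hr. elt-6, of the epidermal seam cells, read 9.82, 9.50 and 9.56 in R0 and 7.94, 7.14 and 8.10 in M0, and 9.77, 9.80, 9.02 and 9.52 in R24 and 8.01, 8.10 and 7.95 in M24. The groups were separate at both times, at -1.90 ± 0.26 (limma adjusted p = 0.0015) and -1.50 ± 0.20 (adjusted p = 0.0064), the latter not a call when scan day entered as a random block (adjusted p = 0.0659). elt-3, of the main epidermis, was lowered at 0 hr (-1.40 ± 0.29, adjusted p = 0.0124). A second probe set of each gene was not called, at -0.31 and -0.54 for elt-6 and -0.11 and 0.02 for elt-3. In R24 all 5 of these genes were above background, beside 3 of the 4 endoderm factors.

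The lumen and terminal web list holds intermediate filaments and other proteins of apical surfaces and epithelial junctions. It had 0 of 12 raised, 4 lowered at 0 hr and 3 at 24 hr. The 4 were let-413 (-1.71 and -1.71), eps-8 (-1.53 and -2.43), ajm-1 (-1.43 and -1.25) and, at 0 hr only as a call, erm-1 (-0.91), in log2 fold change at 0 and 24 hr. let-413 and ajm-1 organise the junctions of all epithelia, and eps-8 and erm-1 serve apical surfaces of several epithelia. At 24 hr the let-413 call was lost without R24 replicate 2 (adjusted p = 0.0632) and without M24 replicate 1 (adjusted p = 0.0807), and the erm-1 call was lost without R0 replicate 3 (adjusted p = 0.0515), with quantile normalization (-0.74, under the fold minimum) and in 1 fit to all 13 arrays (adjusted p = 0.0771). In M24 eps-8 was above background on 0 of 3 arrays. Further probe sets of these genes were mixed: for eps-8 the others ran from -1.99 to 0.55 at 24 hr. The summed intensity of the 8 epidermis markers was 2301 to 3722 in M0 and 10119 to 11647 in R0, and the part of other epithelia in these calls was not tested. Of the 12 genes 5 were above background in R0 and 6 in R24. The filament genes ifc-1, ifc-2, ifd-1, ifd-2 and ifp-1 were not called. They ran from -0.34 (ifd-1) to 0.31 (ifp-1) at 0 hr and from -0.77 (ifd-2) to 0.53 (ifc-2) at 24 hr. ifc-1 and ifd-1 were below background on every array, and ifd-2 passed on 1 of 4 R24 arrays only. ifp-1 passed on 1 of 3 R0, 1 of 3 M0 and 2 of 4 R24 arrays. For these genes the lack of a call was not read as a lack of change. ifc-2 was above background on every array, and its other probe sets gave 0.32 and -0.44 at 0 hr and 0.01 and -0.53 at 24 hr.

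Transport and acidity genes, among them the lumenal proton pump subunit vha-6 and the exchanger nhx-2, gave 0 calls of 9 at each time, and 1 of the 9, mrp-1, was above background in each group. Genes for metal and lipid handling gave 0 calls of 15, with 2 above background in M0 and R0, 5 in M24 and 4 in R24. fat-2, a fatty acid desaturase, had the largest change of these 2 lists at 24 hr, at 1.45 ± 0.41 (limma adjusted p = 0.0663), and was named after its value was seen. Of 5 vitellogenin genes, which encode yolk proteins of the adult gut, vit-1 and vit-2 were below background on all arrays. vit-5 passed on 1 R24 array and vit-6 on 2 of 3 M24 arrays. vit-4 passed on 1 of 3 R0, 1 of 3 M0, 3 of 4 R24 and 2 of 3 M24 arrays.

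The list of gut granule genes and digestive enzymes held the largest change of all 6 lists at 0 hr and for the difference between the times. At 24 hr the largest was that of eps-8, of the lumen and terminal web list. lys-8, a lysozyme, read 9.93, 10.21 and 9.72 in R0 and 6.49, 6.80 and 6.41 in M0, and 8.52, 8.95, 8.75 and 9.02 in R24 and 6.93, 6.24 and 6.31 in M24. It was lower in every muscle array than in every reference array of its time, with log2 fold changes of -3.38 ± 0.20 (limma adjusted p = 1.0e-04) and -2.32 ± 0.21 (adjusted p = 0.0023), and in muscle it was above background on 0 of 3 M0 arrays and 1 of 3 M24 arrays. cpr-6, like cpr-1 a cathepsin B-like protease, was lowered at 24 hr. It read 7.75, 6.79, 7.36 and 6.79 in R24 and 5.97, 5.84 and 6.08 in M24, a log2 fold change of -1.21 ± 0.25 (adjusted p = 0.0273), lost without R24 replicate 3 (adjusted p = 0.0689), M24 replicate 1 (adjusted p = 0.0990) or M24 replicate 2 (adjusted p = 0.0593). It was above background on 0 of 3 M24 arrays, so the size of the change is not settled. glo-4, which acts in the formation of gut granules, was raised at 0 hr (1.65 ± 0.25, adjusted p = 0.0024) and was above background on every array. At 24 hr it was 1.01 (adjusted p = 0.145), which was not a call. Its other probe sets gave 0.44 (adjusted p = 0.212) and 1.34 (adjusted p = 0.0133, a call) at 0 hr, and neither was called at 24 hr.

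asp-4, a cathepsin D-like aspartyl protease of lysosomes, changed sign between the times. It read 10.37, 9.74 and 10.33 in R0 and 8.51, 7.38 and 8.32 in M0, and all muscle values were lower, with a log2 fold change of -2.07 ± 0.31 (limma adjusted p = 0.0024). At 24 hr it read 8.17, 7.72, 8.16 and 7.21 in R24 and 10.05, 10.32 and 8.30 in M24. All M24 values were above all R24 values, with M24 replicate 3 again the lowest of the 3, and the log2 fold change was 1.74 ± 0.50 (adjusted p = 0.0720), which was not a call. Without M24 replicate 3 it was 2.37 (adjusted p = 0.0048). The difference between the times was 3.82 ± 0.65 (adjusted p = 0.0121) and remained a call without each array in turn (3.43 to 4.44). Its second probe set read -1.83, 1.36 and 3.18 in the same order. Of the 17 genes of the list, 7 were above background in R0, 4 in M0, 6 in R24 and 3 in M24.

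**Figure D3:**
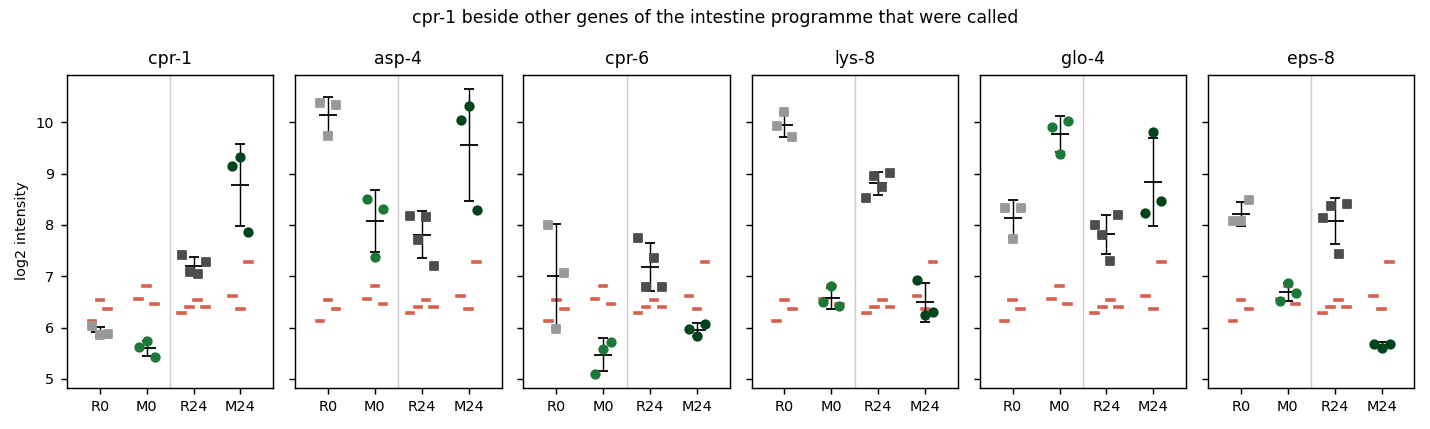
Log2 intensity (y axis) of cpr-1 and 5 called genes of the pathway lists on all 13 arrays, by group (x axis), drawn as in the plot of the panel's values with the background level of each array as red dashes. cpr-1 and asp-4 are higher in all 3 M24 arrays than in all 4 R24 arrays, whereas cpr-6, lys-8 and eps-8 are lower.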

How the data were processed

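The deposited values, 1 per probe set and array, are intensity on a linear scale that the authors made by robust multiarray analysis (RMA, named in the submitters' processing notes with no version) from 100 ng of RNA amplified in 2 rounds. Other text deposited by the authors, the scanner settings of 12 arrays, gave scan days only. Distinct values shared between arrays numbered 55 to 344 per pair at 0 hr, 563 to 1410 at 24 hr and 0 to 1 across times, so the times were taken as separate RMA runs.

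Values were log2-transformed with no pseudocount or filter. limma 3.58.1 in R 4.3.3 was fitted to all 22548 probe sets, M0 with R0 and M24 with R24, and to all 13 arrays for the difference between the times. p-values are two-sided and adjusted by Benjamini-Hochberg, and a call required an adjusted p under 0.05 and a fold of at least 1.7. The code was tested on simulated data.

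Of the probe sets 20766 named 1 gene, 887 several and 895 none in the platform annotation. Named beside the panel were up to 4 called genes per list by largest change, a muscle marker and the 5 genes most like the brightest member. The members and lists were chosen with earlier results of these data known. Deviations of same-numbered arrays correlated at 0.22, 0.32 and 0.15 at 0 hr. M0 replicate 3 correlated higher with R0 replicate 1 (0.27), and M0 replicate 2 shared its scan day with R0 replicate 3. Whether the numbers pair samples is thus not settled. The main fit was unpaired. A fit with the number as a block gave 0 calls of the panel at 0 hr, as the main fit did. With that block the panel's 2 calls at 24 hr and its 1 call for the difference between the times were lost. No genome was used, and neither sequences nor coordinates are given.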

Additional observations from a re-analysis of the deposited data

Results flagged for a closer look

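For pho-1 probe set 175238_s_at the value of R24 replicate 4 was 4.53, far from the other R24 arrays at 3.95, 3.94 and 3.97. It was the 1 value of this kind among the 23 sets of 4 arrays examined, and chance gives about 1 in 20. The value lay 1.87 log2 units below the background level of its array.

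For cpr-1 the log2 fold change of muscle over reference differed between the times by 1.90, from -0.32 at 0 hr to 1.57 at 24 hr, but it was below background on every array at 0 hr, so the size of that difference is not settled. For asp-4 it differed by 3.82, from -2.07 to 1.74. In both, the difference itself passed the threshold.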

How the results depend on the processing

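Alternatives comprised quantile normalization of all arrays, leaving out dim probe sets, an offset of 32, a trended and robust spread, 1 fit to 13 arrays, no fold minimum, scan day, the replicate block and leaving out each array. The panel's calls at 0 hr (0) became 1 with scan day as a fixed block and 0 to 1 without each array. Those at 24 hr (2) became 1 with the offset, 0 with the replicate block, 0 with the random scan day block (R24 replicate 4 as a day of its own) and 0 to 2 without each array. That for the difference (1) became 0 with the offset, 0 with the replicate block and 0 to 1 without each array. At 24 hr same-numbered arrays correlated at 0.21, -0.04 and 0.38, so the number was not taken as a pairing at that time either. With the replicate block, in which R24 replicate 4 has no partner and adds nothing, act-5 was -1.22 (adjusted p = 0.0561) and cpr-1 1.60 (adjusted p = 0.0702) at 24 hr, and the cpr-1 difference 1.92 (adjusted p = 0.0593). With the offset cpr-1 was 1.40 at 24 hr (adjusted p = 0.0535) and its difference 1.60 (adjusted p = 0.0561).

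Calls in the pathway lists numbered 10 at 0 hr (9 to 13 without each array). The 8 at 24 hr became 4 with the random scan day block and 4 to 10 without each array. The 1 for the difference became 2 with dim probe sets left out, 2 with the mean over all probe sets of a gene, and 1 to 3 without each array.

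The number of the 11 probe sets above background moved with the level used. With the 99th percentile they were 0 in M0, 1 in R0, 2 in M24 and 2 in R24, and with the 90th 5 in R0. With 24 major sperm protein probe sets as background they were 3 in M24 and 2 in R24, and with the median of all probe sets 5 in M0 and 7 in R0.

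Signs that reversed were those of small changes. Quantile normalization gave -0.036 for pho-1 182487_s_at at 0 hr and 0.062 for elt-7 at 24 hr. Without each array, ges-1 at 0 hr was -0.15 to 0.059, pho-1 182487_s_at -0.10 to 0.15, elt-2 175269_at at 24 hr -0.33 to 0.58 and elt-7 -0.24 to 0.031, and for the difference end-1 was -0.0045 to 0.50, end-3 -0.071 to 0.39 and elt-2 175269_at -0.13 to 0.78. Of the panel's values under settings other than leaving out an array, 217 kept direction and side of the threshold, 7 lost and 1 gained a call and 2 reversed. For the named genes of the lists the counts were 138, 15, 3 and 0. The cause of these changes was not tested, except that each fit without an array has fewer samples.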

Other observations

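Of the other actin genes, 2 with a probe set of their own were read after the value of act-5 was seen. act-3 differed between muscle and reference by 0.46 ± 0.16 on the log2 scale at 0 hr and 0.09 ± 0.19 at 24 hr, and act-4 by -0.03 ± 0.20 and -0.10 ± 0.10. Neither was called at either time, and whether they differed from act-5 was not tested.

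R24 replicate 4, the array without a scan record, was the highest of the 4 R24 arrays in 6 of the panel's 11 probe sets (54.5%), beside 24.0% of all probe sets. The 6 included the highest values of ifb-2 (8.92) and elt-2 193259_at (7.66).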
